A study of Homo sapiens with 8 samples.

Results

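XBP1 knockdown acted differently on 4905 of 19775 genes (24.8%) in the breast cancer lines T47D and MDA-MB-231. These genes were chosen by a contrast: the knockdown effect in MDA-MB-231 (shXBP1 minus shCtrl, on the log2 scale) minus the same effect in T47D. Each gene was read from a single probe set, the brightest with 1 gene symbol, and called at an adjusted p under 0.05 (limma, Benjamini-Hochberg over all genes). Of the called genes, 2579 (13% of those tested) had the higher effect in MDA-MB-231 and 2326 (11.8%) the lower one. In 675 genes the knockdown effect was called in both lines with opposite signs, and those genes are described first as reversed genes.

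All 8 arrays came from cells grown in glucose-free medium at 0.1% O2 for 24 h after lentiviral infection and puromycin selection. T47D is an oestrogen receptor-positive luminal line, and MDA-MB-231 is a triple-negative line with mesenchymal features. Lentiviral shRNA was either a control (shCtrl) or directed at XBP1 (shXBP1), giving 4 groups with 2 arrays each. The untreated conditions were not analysed here, so every effect below is shXBP1 minus shCtrl under combined oxygen and glucose shortage. Each breast cancer subtype is represented by a single line, and the labels name a single XBP1 hairpin group per line. Effects of XBP1 loss and other effects of the hairpin can therefore not be told apart. The labels call the replicates biological without saying whether they were separate infections, so the p-values cover no more than the spread seen between these arrays, part of which may be technical.

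XBP1 drives transcription in the unfolded protein response, the reaction of cells to misfolded proteins in the ER. Its active form is made when the ER sensor IRE1 removes a short intron from its mRNA. Its best-known targets encode chaperones, degradation factors and vesicle proteins of the secretory pathway. In triple-negative breast cancer it is also known to act together with HIF1A, the oxygen-regulated subunit of the hypoxia-inducible factor, on glucose and hypoxia genes. PERK and its effector ATF4 form another branch of the same stress response, which restrains translation and turns on amino acid and stress genes.

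The knockdown was deep in both lines. XBP1 read 12.41 and 12.56 with shCtrl and 7.52 and 7.16 with shXBP1 in T47D. In MDA-MB-231 it read 10.83 and 10.69 with shCtrl and 7.13 and 6.69 with shXBP1. No shXBP1 array overlapped a shCtrl array of its line. The 2 falls differed by 1.3 (SE 0.25, adjusted p = 0.00745), or by 0.86 with the mean over the XBP1 probe sets. The smaller fall was in MDA-MB-231, which started lower with shCtrl and ended no higher than T47D with shXBP1.

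Values are deposited log2 RMA levels, with array medians of 5.87 to 5.91. Pearson's r between the replicates of a group was 0.9957 to 0.9977 over genes, and no pair was identical. The label of each line was checked on markers: 10 of 10 luminal markers were above the median of all probe sets (5.96) in T47D and 5 in MDA-MB-231, while 3 and 8 of 8 mesenchymal markers were. Leukocyte and endothelial markers, not expected in either line, had 0 of 10 and 0 of 6 called in the difference. Both counts were also 0 at an unadjusted p under 0.05 in limma. Their summed levels, on the log2 scale, ranged from 8.53 to 8.75 and from 8.27 to 8.69 over all arrays. Summed fibroblast markers went from 9.86 to 10.03 up to 10.3 to 10.37 in T47D, without overlap, and were at 10.46 to 10.6 and 10.55 to 10.8 in MDA-MB-231. Without MDA-MB-231 shXBP1 replicate 1 the leukocyte count was 1. Summed luminal markers went from 17.27 to 17.28 down to 16.76 to 16.78 in T47D and from 14.96 to 14.99 up to 15.28 to 15.36 in MDA-MB-231, with 5 of 10 called in the difference. Summed mesenchymal markers went from 10.79 to 10.8 down to 10.32 to 10.34 in T47D and from 15.26 to 15.28 up to 15.49 to 15.51 in MDA-MB-231, with 2 of 8 called. The fibroblast markers had 2 of 10 called, FAP, a membrane protease (2.19), and THY1 (0.51, lost under several alternatives). The 3' minus 5' difference of the ACTB control probe sets, a measure of RNA quality, ranged from 0.893 to 1.3 over the arrays, with 1.3 and 1.21 in MDA-MB-231 shCtrl against 0.893 and 1.1 in shXBP1. The corresponding GAPDH difference ranged from 0.157 to 0.334. The part of RNA quality and of these markers in the results below was not tested, and in bulk RNA fewer cells of a state and less RNA per cell cannot be told apart.

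The effects in the 2 lines were only weakly correlated. Across 19775 genes Pearson's r of the effects was 0.0993 and Spearman's rank correlation 0.0609, as a description of genes that are not independent. Both lines had 1713 genes called: 657 rose in both, 381 fell in both and 675 moved in opposite directions. Of the latter, 339 rose in MDA-MB-231 and fell in T47D (1.71% of genes tested), and 336 fell in MDA-MB-231 and rose in T47D (1.7%). All 675 were also called in the difference, and in every one both shXBP1 arrays lay on one side of both shCtrl arrays in each line. Both facts follow closely from choosing genes with called opposite effects on these arrays, so they are no separate support. The arrays were likewise apart in all 276 genes with a called difference and calls of one direction in both lines. T47D had 15.5% of genes called up and 13.5% down, and MDA-MB-231 had 10.6% up and 6.68% down.

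**Figure D1:**
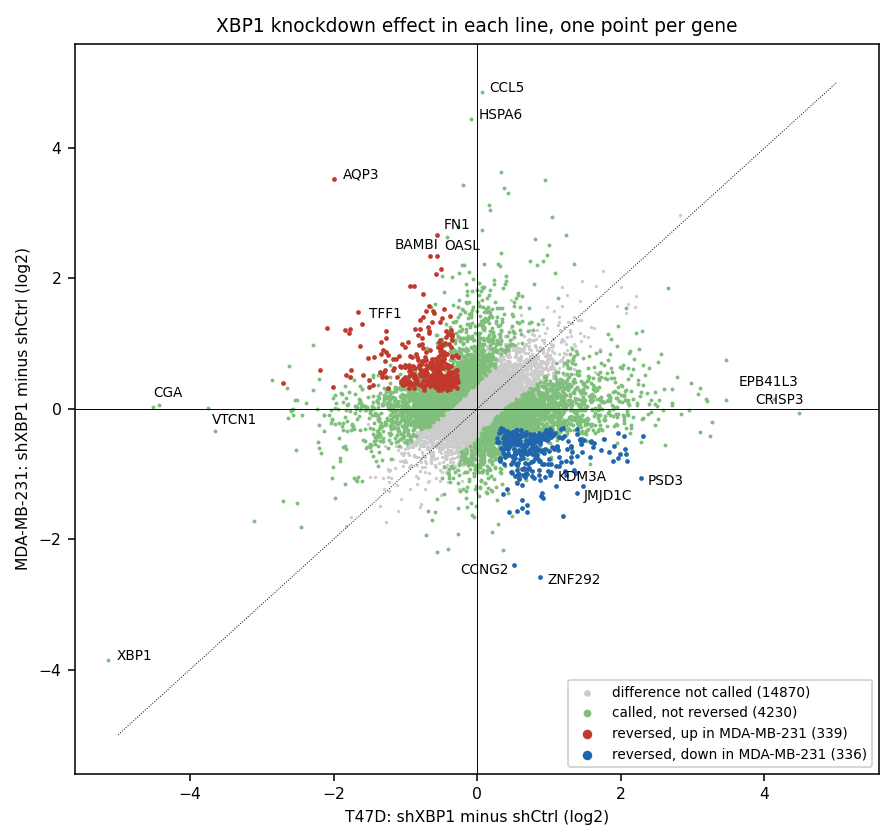
Knockdown effect in T47D (x axis) and MDA-MB-231 (y axis), both log2, 1 point per gene for 19775 genes; the dotted line marks equal effects. Red points are the 339 genes that rose in MDA-MB-231 and fell in T47D, blue points the 336 with the opposite pattern, green points the other called genes, and grey points genes without a called difference; XBP1 lies at the lower left.

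The remaining called genes differed in size or were called in 1 line. The largest class, 2578 genes (52.6% of the called), was called in T47D and not in MDA-MB-231, 1227 with the higher effect in MDA-MB-231 and 1351 with the lower. Another 1063 (21.7%) were called in MDA-MB-231 and not in T47D, 694 higher and 369 lower. A further 276 were called in both lines in one direction with unequal size, and 313 in neither. Dimness in a line, meaning both group means under 5.96, applied to 17.1% of the T47D class in MDA-MB-231 and to 18.9% of the MDA-MB-231 class in T47D, against 36.1% and 35.1% of all genes. Among reversed genes it was rarer, with 2.06% and 5.9% dim in T47D and MDA-MB-231 for those up in MDA-MB-231 and 2.08% and 5.36% for the opposite group.

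The reversals were mostly moderate in each line but wide between them. The difference was at least 2-fold in 249 of the 339 genes up in MDA-MB-231 and in 263 of the 336 down there. Only 11 and 7 of them moved at least 2-fold in both lines. The smallest called effects among reversed genes were 0.26 in T47D and 0.29 in MDA-MB-231. At the threshold of the difference itself, GPD2 was just inside (-0.69, adjusted p = 0.04994) and PJA2 just outside (-0.46, adjusted p = 0.05). The reversed counts depended on single arrays. They were 166 up in MDA-MB-231 and 182 down without T47D shXBP1 replicate 1, 177 and 180 without T47D shXBP1 replicate 2, and 207 and 179 without MDA-MB-231 shCtrl replicate 1. Those up in MDA-MB-231 numbered 199 without T47D shCtrl replicate 2, and those down there 202 without T47D shCtrl replicate 1 and 188 without MDA-MB-231 shXBP1 replicate 1. All genes called higher numbered 1692 and 1719 without T47D shXBP1 replicate 1 and 2.

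AQP3, a channel for water and glycerol, had the widest difference of all reversed genes. It read 8.52 and 8.61 with shCtrl and 6.44 and 6.72 with shXBP1 in T47D. In MDA-MB-231 it read 8.2 and 8.51 with shCtrl and 11.88 on both shXBP1 arrays. The lines started at like levels and ended far apart on all 4 shXBP1 arrays, with effects of -1.99 and 3.53 and a difference of 5.52 (SE 0.19, adjusted p = 4.61e-05). The other AQP3 probe sets were smaller, at 1.90 and 2.10, and their mean with the brightest gave 3.17.

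FN1, the matrix protein fibronectin and a marker of mesenchymal cells, followed the same pattern. Its T47D levels were 9.45 and 9.4 with shCtrl and 8.84 and 8.89 with shXBP1. MDA-MB-231 levels were 8.63 and 8.52 with shCtrl and 11.35 and 11.13 with shXBP1, a rise of 2.67 against a fall of 0.57 in T47D (difference 3.23, adjusted p = 6.4e-05). The 3 other bright FN1 probe sets gave 3.58, 3.35 and 3.42, while dim ones at the bottom of the scale pulled the mean over probe sets to 2.08.

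Among the other named genes of this direction, TFF1, a secreted trefoil peptide and classical oestrogen receptor target, read 12.01 and 12.18 with shCtrl and 10.57 and 10.41 with shXBP1 in T47D and 8.22 on both shCtrl arrays and 9.56 and 9.49 with shXBP1 in MDA-MB-231 (difference 2.9). T47D kept the higher TFF1 level in every group. FOLR1, a folate receptor, fell by 1.66 in T47D and rose by 1.49 in MDA-MB-231, but its other probe set gave -0.29 for the difference and the mean 1.43. BAMBI, a decoy receptor that dampens TGF-beta signalling, had effects of -0.66 and 2.34. CCN5, a matricellular protein, had -2.09 and 1.24, and the placental glycoprotein gene PSG9 had -1.79 and 1.17. PLAC8 fell by 2.7 in T47D with a small rise of 0.4 in MDA-MB-231. OASL, an interferon-induced antiviral gene, had -0.56 and 2.34. ARHGDIB had -0.94 and 1.89, and the histone gene H2BC21 had -1.84 and 1.21. CDC20B had -1.78 and 1.23 and was dim in MDA-MB-231, with a difference of 3.01 that was 1.23 with the mean over probe sets.

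Of these 12 genes, 7 kept all 3 calls when any 1 array was left out. The T47D call was lost for BAMBI without any 1 T47D array (adjusted p up to 0.108), for ARHGDIB likewise (up to 0.0681) and for OASL in 6 of the 8 fits (up to 0.236, effect -0.34 without T47D shXBP1 replicate 2). The MDA-MB-231 call was lost for PLAC8 without any 1 MDA-MB-231 array (up to 0.0999) and for H2BC21 without MDA-MB-231 shCtrl replicate 1 (1.04, adjusted p = 0.053). The difference between the lines stayed called in all of them.

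In the opposite direction, ZNF292, a large zinc finger transcription factor, led. Its T47D levels were 9.8 and 9.61 with shCtrl and 10.59 and 10.57 with shXBP1. Its MDA-MB-231 levels were 9.95 and 9.7 with shCtrl and 7.17 and 7.33 with shXBP1. The shCtrl levels of the lines overlapped, and the shXBP1 levels were apart by more than 3 log2 units (difference -3.46, SE 0.17, adjusted p = 6.4e-05). Its second probe set gave -2.73, and a dim one brought the mean over probe sets to -2.12.

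CCNG2, an atypical cyclin that is linked to cell cycle arrest and is a hypoxia-inducible gene, read 12.22 and 12.36 with shCtrl and 12.77 and 12.83 with shXBP1 in T47D. In MDA-MB-231 it read 9.95 and 9.63 with shCtrl and 7.27 and 7.53 with shXBP1, so that a small rise of 0.51 stood against a fall of 2.39 (difference -2.9, adjusted p = 0.000163). The next brightest CCNG2 probe sets gave -3.04 and -2.67. Its dimmer probe sets gave 1.32 and 0.30 with the opposite sign, and the mean over probe sets was -1.40. Without any 1 T47D array the T47D rise of CCNG2 missed the threshold (adjusted p up to 0.129).

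Among the other named genes of this direction, JMJD1C, of the jumonji histone demethylase family, read 9.78 and 9.68 with shCtrl and 11.08 and 11.15 with shXBP1 in T47D and 10.26 and 10.15 with shCtrl and 8.94 and 8.89 with shXBP1 in MDA-MB-231 (difference -2.68, or -1.31 with the mean over probe sets). CREBRF, a regulator of CREB3 factors and of starvation responses, rose by 1.2 in T47D and fell by 1.65 in MDA-MB-231. Its 4 other probe sets ran the same way, with differences between -1.57 and -2.82. ID3, an inhibitor of basic helix-loop-helix factors, had effects of 1.9 and -0.8. ZBTB34, a zinc finger gene of the BTB family, had 2.31 and -0.42. LONRF1 had 2.08 and -0.7 and PGM2L1, a glucose-1,6-bisphosphate synthase, 2.08 and -0.8. The ARF6 exchange factor gene PSD3 had 2.28 and -1.06, FRMD6, of the Hippo pathway, 1.98 and -0.7, and NREP 2.06 and -0.61. COL5A2, a fibrillar collagen chain, had 1.97 and -0.76.

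Here 8 of 12 genes kept all 3 calls with any 1 array left out. Besides CCNG2, the MDA-MB-231 call was lost for PGM2L1 (adjusted p up to 0.109 without MDA-MB-231 shCtrl replicate 1), FRMD6 (up to 0.054 without shXBP1 replicate 1) and ZBTB34 (0.0645 without shCtrl replicate 2). With the mean over probe sets the differences of PGM2L1, LONRF1 and NREP shrank to -1.11, -1.16 and -1.44. The reversal of LONRF1, NREP and CCNG2 was lost with that mean.

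**Figure D2:**
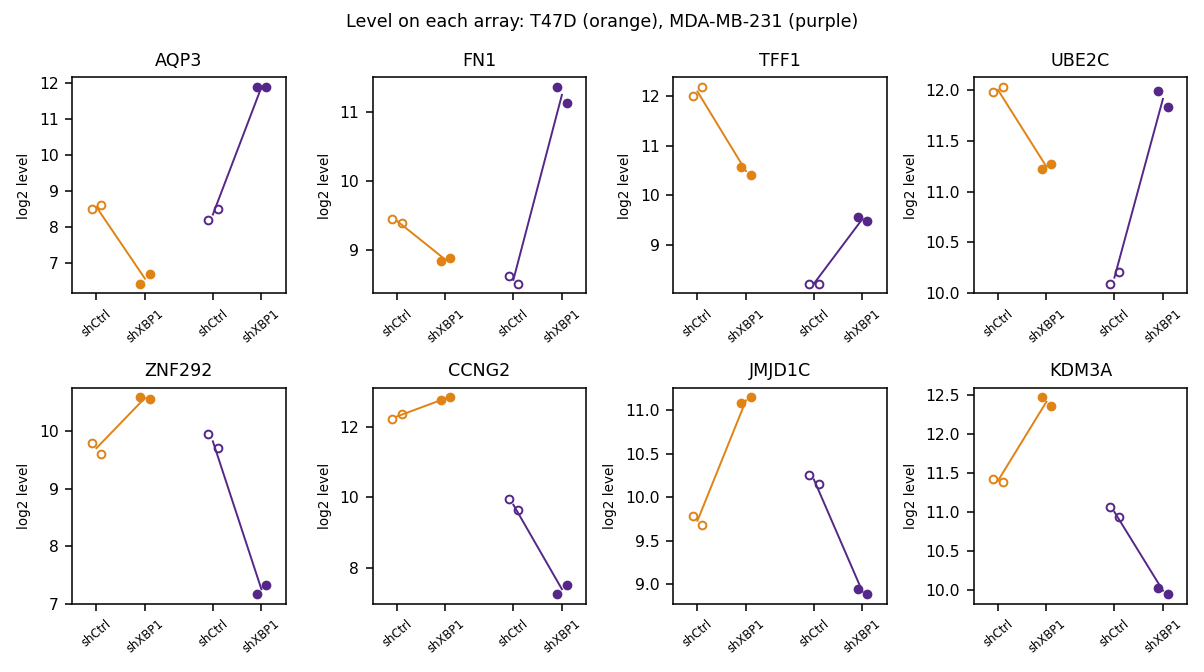
Log2 level on each array for 8 reversed genes, with shCtrl as open and shXBP1 as filled points, T47D in orange and MDA-MB-231 in purple; lines join the group means, and each panel has its own vertical scale. In the upper row (AQP3, FN1, TFF1, UBE2C) the orange lines go down and the purple lines up, and in the lower row (ZNF292, CCNG2, JMJD1C, KDM3A) the reverse.

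Some of the widest differences belonged to a single line. CCL5, a chemokine that attracts T cells, read 6.0 and 6.39 with shCtrl and 11.22 and 10.91 with shXBP1 in MDA-MB-231, and its T47D levels were 6.03 and 5.98 with shCtrl and 6.12 and 6.01 with shXBP1. CCL5 rose in MDA-MB-231, its T47D groups overlapped, and it had a difference of 4.81 (adjusted p = 6.4e-05). HSPA6, a stress-inducible HSP70, read 7.96 and 9.12 with shCtrl and 13.74 and 12.23 with shXBP1 in MDA-MB-231 and 7.77 and 7.88 with shCtrl and 7.6 and 7.88 with shXBP1 in T47D. In MDA-MB-231 the replicates of each HSPA6 group were apart by more than 1 log2 unit, and the difference of 4.53 had a wide SE of 0.71. MFAP5, a microfibril protein, was dim in T47D and rose by 3.43 in MDA-MB-231.

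T47D supplied the other side. CGA, the common subunit of glycoprotein hormones, fell by 4.52 in T47D (difference 4.54, or 2.18 with the mean over probe sets). LRRC15, a membrane protein, and VTCN1, a B7 family protein that restrains T cells, fell by 4.42 and 3.75 there and were dim in MDA-MB-231, which leaves little room to see a fall there. Among genes that rose in T47D, CRISP3, a secreted cysteine-rich protein, differed by -4.55. EPB41L3, a membrane skeleton protein, differed by -3.99, RASGRP1, an activator of RAS, by -3.66, and the EGF receptor ligand gene EREG by -3.33. These 4 were dim in MDA-MB-231. FZD5, a Wnt receptor, and CPEB2, an RNA-binding regulator of translation, were not dim and differed by -3.47 and -3.46. The mean over probe sets gave 2.20 for LRRC15, -1.72 for EREG, -2.18 for FZD5 and -1.51 for CPEB2.

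The genes were also grouped into 41 lists of pathways, families and markers. Some genes are in several lists, such as KDM3A among HIF targets and jumonji demethylases, so the counts of different lists are not separate. Over all genes the median difference was 0.05, with median effects of -0.02 in T47D and 0.03 in MDA-MB-231. The lists are described by counts and medians, without a test of the list. Their counts stand beside the shares of all genes tested: 24.8% called, 13% higher and 11.8% lower in MDA-MB-231. Bright genes were called more often, with 4082 of the 11913 genes dim in neither line called.

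**Figure D3:**
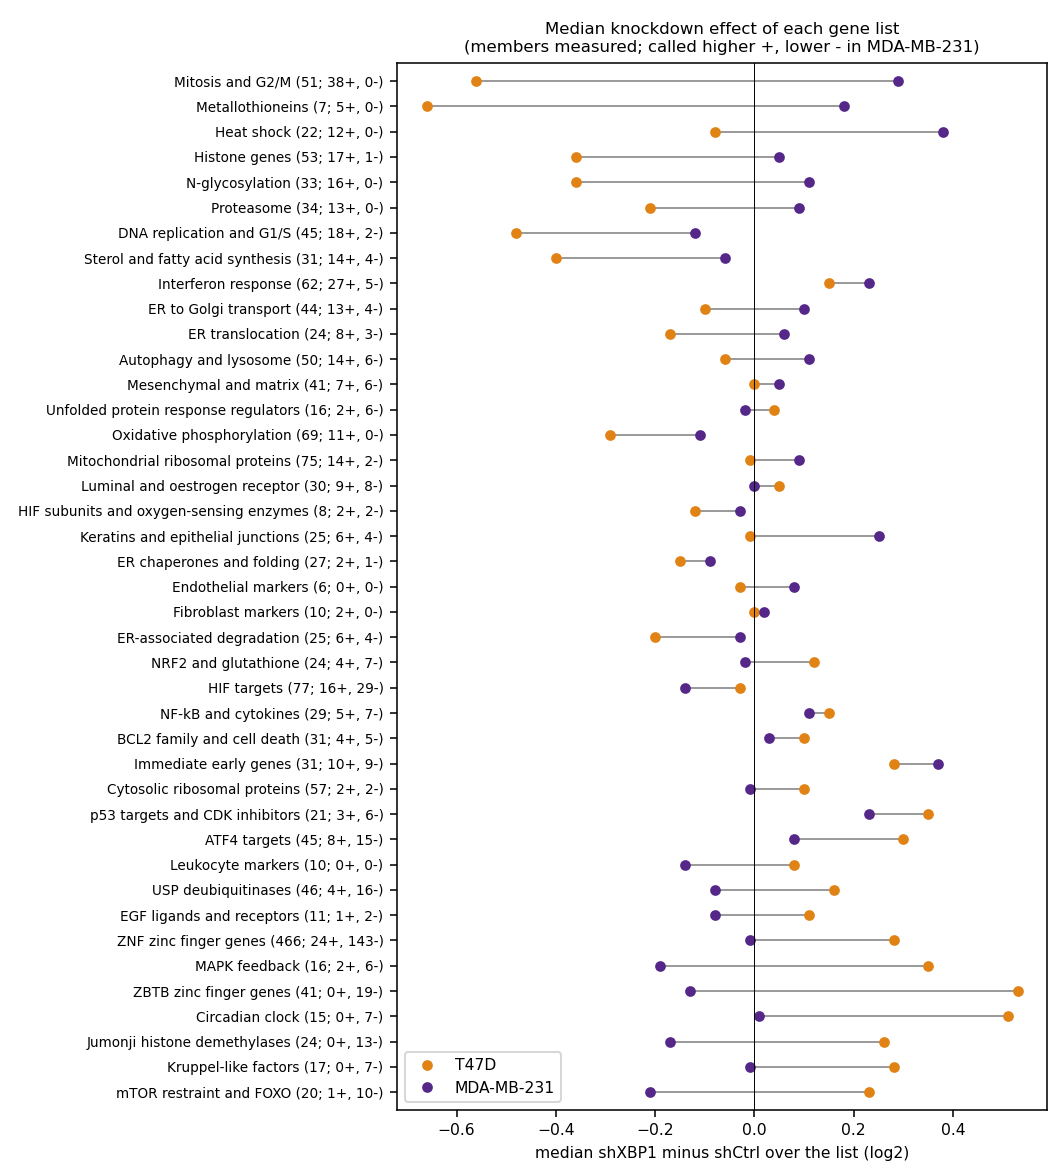
Median knockdown effect (log2) over the measured members of each of 41 gene lists in T47D (orange) and MDA-MB-231 (purple), ordered by the median difference; in brackets are the members measured and those called higher (+) or lower (-) in MDA-MB-231. Mitosis genes are at the top, with medians of -0.56 and 0.29, and the mTOR restraint and FOXO list is at the bottom, with 0.23 and -0.21.

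Hypoxia genes had calls in both directions. Of 77 measured HIF targets, 45 (58.4%) were called, 16 higher and 29 lower in MDA-MB-231, and 11 of the latter were fully reversed, down in MDA-MB-231 and up in T47D. Another 2 were reversed the other way. T47D had 22 of them up and 19 down, MDA-MB-231 8 up and 25 down. The median difference was -0.05, or -0.2 to -0.01 with 1 array left out, and the counts by role follow without a test between roles.

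The core glycolytic enzymes had 6 of 14 called higher in MDA-MB-231 and 0 lower (2 lower at an unadjusted p under 0.05, limma). ENO1, enolase, read 13.91 and 13.96 with shCtrl and 13.33 and 13.27 with shXBP1 in T47D and 13.94 and 13.89 with shCtrl and 14.01 and 13.91 with shXBP1 in MDA-MB-231. The T47D groups did not overlap and the MDA-MB-231 groups did. TPI1 and PGAM1 differed by 0.7 and 0.59, and GAPDH by 0.48. These 4 enzymes were chosen for naming after their values were seen.

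Genes of glucose uptake, glycogen and glycolytic regulation had 3 of 13 called higher and 7 lower. PDK1, which limits pyruvate oxidation in mitochondria, read 11.19 and 11.23 with shCtrl and 11.84 and 11.81 with shXBP1 in T47D. In MDA-MB-231 PDK1 read 10.60 and 10.52 with shCtrl and 9.36 and 9.41 with shXBP1, with a difference of -1.79 (SE 0.12, adjusted p = 0.000157). Its second probe set gave -1.36. HK2, a hexokinase, had effects of 0.86 and -1.02 at its brightest probe set. Its dimmer probe sets read 0.01 and 1.15 for the difference, and the call was lost with the mean over probe sets (-0.24). SLC2A1, the main glucose transporter, fell in both lines, by 1.15 and 0.91, and its difference of 0.24 did not pass (adjusted p = 0.376).

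Among oxygen sensing, chromatin and transcription genes 7 of 15 were called lower and 1 higher. KDM3A, a histone H3K9 demethylase that needs oxygen, read 11.42 and 11.38 with shCtrl and 12.47 and 12.36 with shXBP1 in T47D and 11.06 and 10.94 with shCtrl and 10.03 and 9.95 with shXBP1 in MDA-MB-231. The groups were apart in both lines, in opposite directions, with a difference of -2.03 (SE 0.13, adjusted p = 0.000141). Of 12 secreted vascular and hormone-like factors, 4 were called higher and 2 lower. VEGFA, the main angiogenic factor, read 12.90 and 12.93 with shCtrl and 13.42 and 13.26 with shXBP1 in T47D and 11.33 and 11.08 with shCtrl and 10.46 and 10.52 with shXBP1 in MDA-MB-231 (difference -1.13, adjusted p = 0.00182). The small T47D rise of VEGFA was lost without T47D shXBP1 replicate 1 (0.34, adjusted p = 0.148) or either T47D shCtrl array. EDN2, a vasoconstrictor peptide, went the other way, with -2.65 in T47D and 0.32, not called, in MDA-MB-231. TGFA, an EGF receptor ligand, differed by 1.83, or by 1.03 with the mean over probe sets.

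The 23 stress, autophagy and signalling targets had 13 called lower and 2 higher, and 6 of the 13 were reversed. DDIT4, an inhibitor of mTOR signalling, read 12.10 and 12.20 with shCtrl and 12.99 and 13.02 with shXBP1 in T47D and 13.82 and 13.73 with shCtrl and 13.00 on both shXBP1 arrays in MDA-MB-231 (difference -1.62, adjusted p = 0.00022). Among the oxygen-sensing factors themselves, HIF1A mRNA had effects of 0.27 and -0.3, neither called, and a called difference of -0.57 (adjusted p = 0.0135). That call was lost without T47D shXBP1 replicate 2 (adjusted p = 0.0634). EPAS1, encoding HIF2-alpha, fell by 2.57 in T47D and was at 0.01, not called, in MDA-MB-231, with a difference of 2.58, or of 1.26 with the mean over probe sets. HIF1AN, the asparagine hydroxylase that limits HIF activity, had -0.46 and 0.82. Its T47D call was lost without any 1 T47D array (adjusted p up to 0.185). In this list of 8 subunits and hydroxylases 2 were called higher and 2 lower, and the count of 4 was 2 without T47D shXBP1 replicate 2.

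**Figure D4:**
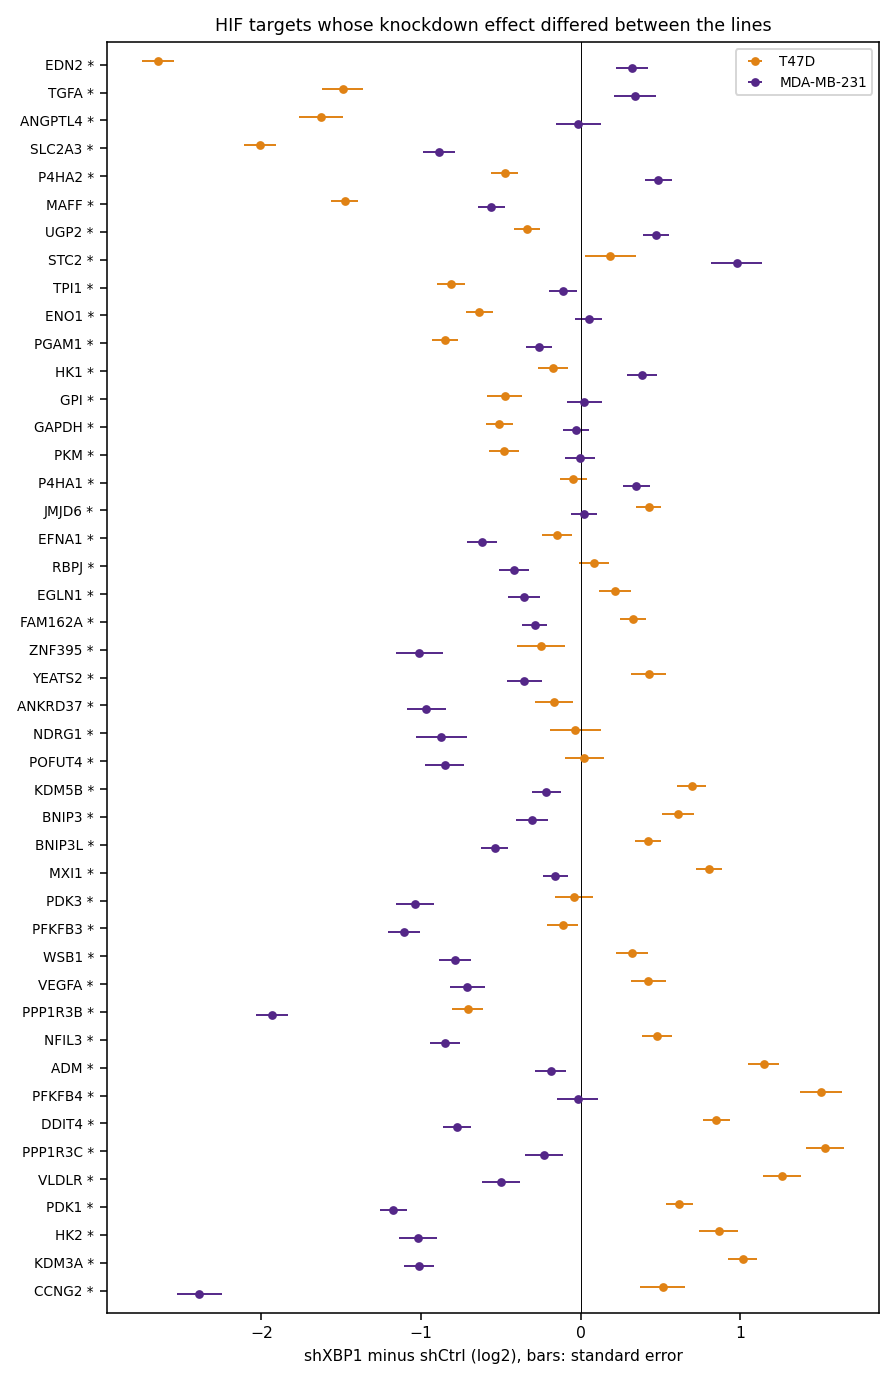
Knockdown effect (log2, x axis) in T47D (orange) and MDA-MB-231 (purple) of the 45 HIF targets with a called difference, ordered from the most positive to the most negative difference; bars are limma standard errors. EDN2 is at the top (-2.65 and 0.32) and CCNG2 at the bottom (0.51 and -2.39).

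The promoters of CCNG2 and DDIT4 are shown because both genes are HIF targets with a lower effect in MDA-MB-231 and their windows hold the core letters of the hypoxia response element. Each window runs from 250 bases before to 50 after the annotated start (RefSeq, GRCh38.p14), 5′ to 3′ on the gene's strand, and capitals mark ACGTG or its reverse complement. CCNG2 is at chr4:77156957-77157256 (plus strand), where matches on both strands overlap, and DDIT4 at chr10:72273674-72273973 (plus strand).
CCNG2: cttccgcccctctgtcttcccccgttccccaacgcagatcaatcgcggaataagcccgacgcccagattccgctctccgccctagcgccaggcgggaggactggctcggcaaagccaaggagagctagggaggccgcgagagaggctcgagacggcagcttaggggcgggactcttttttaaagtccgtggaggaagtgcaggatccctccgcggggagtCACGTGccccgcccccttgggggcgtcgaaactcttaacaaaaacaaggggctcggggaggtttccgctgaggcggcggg
DDIT4: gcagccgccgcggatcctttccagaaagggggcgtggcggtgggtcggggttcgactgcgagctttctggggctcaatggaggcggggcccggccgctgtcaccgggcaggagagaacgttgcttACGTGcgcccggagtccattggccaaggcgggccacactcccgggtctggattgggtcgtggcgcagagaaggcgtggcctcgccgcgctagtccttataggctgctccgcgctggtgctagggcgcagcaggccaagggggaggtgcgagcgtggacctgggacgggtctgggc
ACGTG, on either strand, was in 11 of 23 promoters (47.8%) of HIF targets called lower in MDA-MB-231 and in 6 of 15 (40%) of those called higher. Over all 68 HIF targets with a promoter in the table it was in 33 (48.5%), and over all 15382 tested genes with one in 24.1%. Such letters are a description of the window and not a binding site.

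Genes of mitosis had the largest share called of the 41 lists. Of 51 measured, 38 (74.5%) were called higher in MDA-MB-231 and 0 lower, against 13% higher among all genes. At an unadjusted p under 0.05 in limma the counts were 41 and 0. In T47D 36 fell and 0 rose (0 also unadjusted), and in MDA-MB-231 19 rose and 3 fell. The median difference was 0.97, and 15 genes were fully reversed. With any 1 array left out, 33 to 36 were called.

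UBE2C, which charges the anaphase-promoting complex with ubiquitin, read 11.98 and 12.03 with shCtrl and 11.22 and 11.27 with shXBP1 in T47D and 10.09 and 10.21 with shCtrl and 11.99 and 11.84 with shXBP1 in MDA-MB-231. The control levels of T47D stood above those of MDA-MB-231, and the order turned after knockdown (difference 2.52, adjusted p = 7.87e-05). SPC25, a kinetochore subunit, read 8.72 and 8.83 with shCtrl and 8.14 and 8.26 with shXBP1 in T47D and 5.89 and 6.23 with shCtrl and 8.1 and 8.18 with shXBP1 in MDA-MB-231, where it started near the median of all probe sets. Its partner NDC80 had effects of -1.0 and 0.64. NEK2, a centrosome kinase, had -1.17 and 0.59, the kinesin gene KIF18A -0.66 and 0.9, and HMMR, a spindle protein, -1.05 and 0.39. The MDA-MB-231 call of HMMR was lost in 3 of 8 fits with 1 array left out (adjusted p up to 0.0887 without MDA-MB-231 shCtrl replicate 1). The T47D call of SPC25 was lost in 2 (up to 0.0767 without T47D shXBP1 replicate 1). TOP2A, the topoisomerase of dividing cells and named here after its values were seen, fell in both lines, by 3.1 and 1.72.

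**Figure D5:**
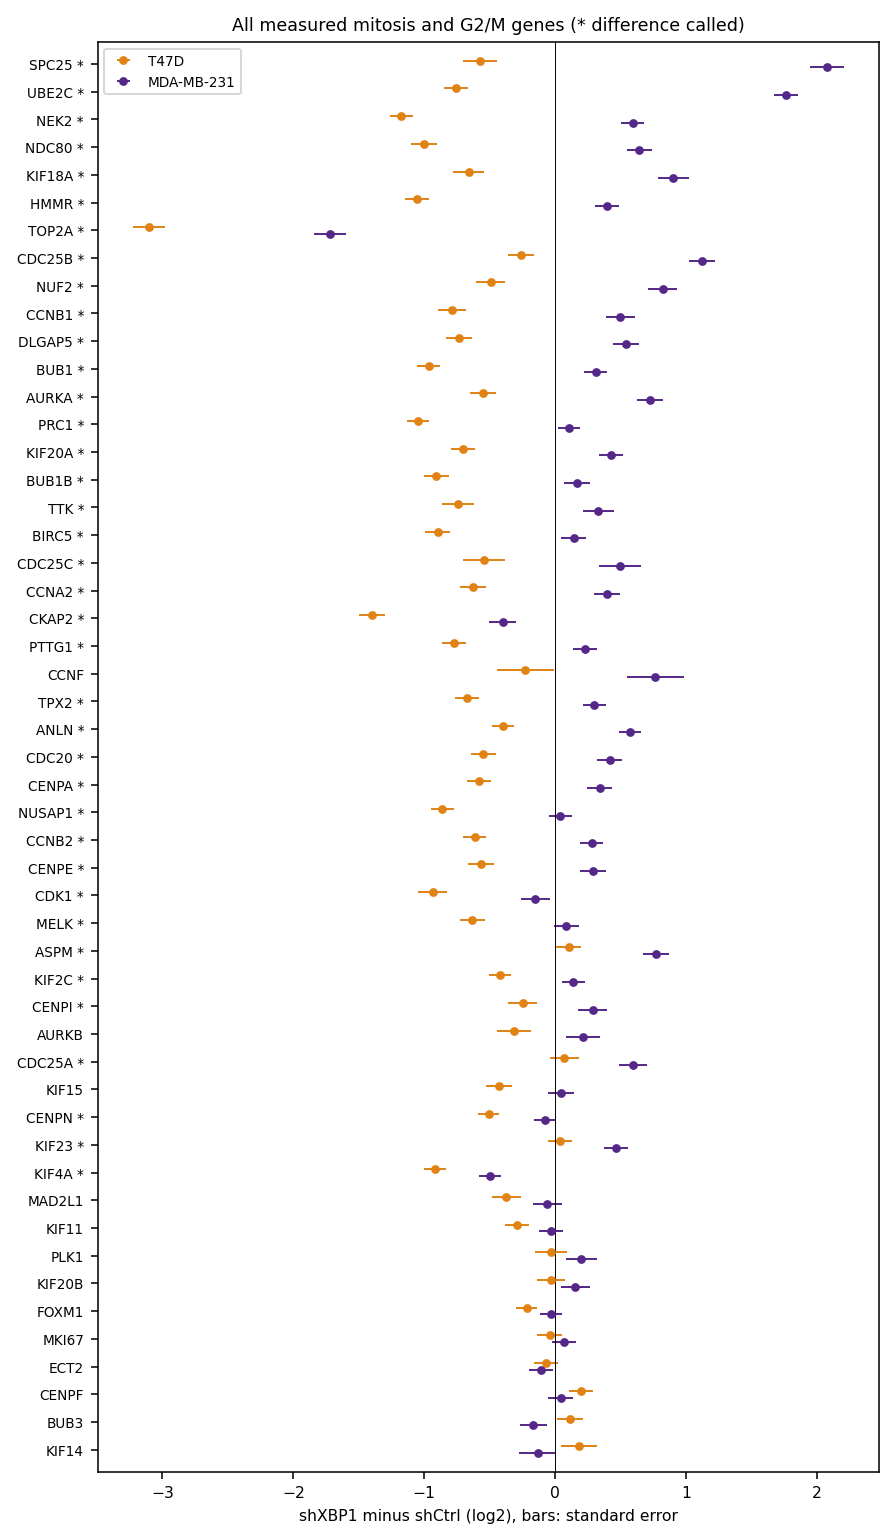
Knockdown effect (log2, x axis) in T47D (orange) and MDA-MB-231 (purple) of all 51 measured mitosis and G2/M genes, ordered by the difference; bars are limma standard errors and an asterisk marks a called difference. The orange points of 36 genes were called below 0, while 19 purple points were called above 0 and 3 below it.

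The promoters of SPC25 and HMMR are shown as members called higher in MDA-MB-231 that hold both letter groups often found near cell cycle genes. Capitals mark the CCAAT box (CCAAT) and the CHR element (TTTGAA) on either strand, and some matches overlap. SPC25 is at chr2:168890381-168890680 (minus strand) and HMMR at chr5:163460382-163460681 (plus strand), in the same build and orientation.
SPC25: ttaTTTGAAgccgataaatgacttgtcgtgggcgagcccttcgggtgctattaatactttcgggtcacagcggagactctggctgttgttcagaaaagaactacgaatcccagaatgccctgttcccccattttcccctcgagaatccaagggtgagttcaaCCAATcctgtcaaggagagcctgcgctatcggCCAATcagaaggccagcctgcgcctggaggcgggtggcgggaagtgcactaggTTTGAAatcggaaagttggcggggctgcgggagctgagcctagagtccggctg
HMMR: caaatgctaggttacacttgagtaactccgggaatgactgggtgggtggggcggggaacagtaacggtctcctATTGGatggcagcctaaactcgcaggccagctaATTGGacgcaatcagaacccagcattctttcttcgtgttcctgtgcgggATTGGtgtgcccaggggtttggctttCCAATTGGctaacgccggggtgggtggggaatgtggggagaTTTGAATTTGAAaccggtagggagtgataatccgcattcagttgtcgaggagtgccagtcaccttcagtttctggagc
TTTGAA was in 19 of 33 promoters (57.6%) of the mitosis genes called higher, against 11.9% of all 15382, and CCAAT in 22 of 33 (66.7%), against 36.1%. Of all 44 mitosis genes with a promoter, called or not, 65.9% held TTTGAA and 72.7% CCAAT.

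DNA replication and G1/S genes differed in the same direction without a general rise in MDA-MB-231. Of 45 measured, 18 were called higher and 2 lower, with 32 down and 1 up in T47D and 6 up and 6 down in MDA-MB-231. RRM2, the ribonucleotide reductase subunit of dividing cells, read 12.23 and 12.24 with shCtrl and 10.16 and 10.29 with shXBP1 in T47D and 12.41 and 12.38 with shCtrl and 12.76 and 12.70 with shXBP1 in MDA-MB-231 (difference 2.35). Its small MDA-MB-231 rise of 0.34 missed the threshold with any 1 of the 8 arrays left out (adjusted p up to 0.118). POLE2, of DNA polymerase epsilon, had -1.29 and 0.57, a rise lost without any 1 MDA-MB-231 array (up to 0.0786). ORC6, of the origin recognition complex, had -0.59 and 0.68. The licensing genes CDC6 and MCM3 fell by 1.37 and 1.15 in T47D and were at -0.14 and -0.11, not called, in MDA-MB-231.

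Histone genes had 17 of 53 called higher and 1 lower (34% called), with 24 down in T47D and 5 up in MDA-MB-231. H4C8 and H2AC8 fell by 2.2 and 1.54 in T47D and were at 0.45 and -0.01, not called, in MDA-MB-231. The linker histone genes differed among themselves: H1-2 fell by 2.52 in T47D and by 0.64 in MDA-MB-231, and H1-4, the one gene called lower, by 2.15 in MDA-MB-231 with -0.4, not called, in T47D. Members of this family are close copies, so their probe sets may share signal.

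Zinc finger genes went the opposite way to mitosis. Of 466 numbered ZNF genes, 143 were called lower in MDA-MB-231 and 24 higher (35.8% called in all), against 11.8% and 13% of all genes. In T47D 182 rose and 18 fell, while MDA-MB-231 had 42 up and 42 down, and the median difference was -0.3. On chromosome 19, where many of these genes lie in clusters, 65 of 220 (29.5%) were called lower, against 78 of 246 (31.7%) on other chromosomes. Other genes of chromosome 19 had 63 of 1100 called lower (5.73%). Many are near copies of one another, so their probe sets may share signal. ZNF680 read 7.94 and 8.13 with shCtrl and 10.72 and 10.76 with shXBP1 in T47D and 6.75 and 6.86 with shCtrl and 6.87 and 6.93 with shXBP1 in MDA-MB-231, a rise of 2.71 in T47D against 0.09, not called, in MDA-MB-231. ZNF678 had effects of 1.91 and -0.56, the latter lost in 7 of 8 fits with 1 array left out (adjusted p up to 0.193 without MDA-MB-231 shXBP1 replicate 1). ZNF506 and ZNF124 differed by -3.17 and -2.5, or by -1.04 and -1.14 with the mean over probe sets.

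The ZBTB genes, whose proteins join a BTB domain to zinc fingers and often repress transcription, had 19 of 41 called lower and 0 higher (0 higher also at an unadjusted p under 0.05, limma), and 11 were reversed. T47D had 24 up and 1 down, MDA-MB-231 4 up and 14 down. ZBTB43 read 9.25 and 9.32 with shCtrl and 10.06 and 10.04 with shXBP1 in T47D and 9.74 and 9.52 with shCtrl and 8.51 and 8.7 with shXBP1 in MDA-MB-231, apart in both lines. ZBTB18 had 1.41 and -0.35, not called, and ZBTB26 0.81 and -0.75, a difference of -0.85 with the mean over probe sets. The reversal of ZBTB26 was lost with that mean. The list then had 16 called lower, 1 higher and 8 reversed.

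Kruppel-like factors had 7 of 17 called lower and 0 higher, the latter also at an unadjusted p under 0.05 in limma. KLF5, an epithelial growth factor-responsive member, read 8.54 and 8.5 with shCtrl and 10.05 and 9.74 with shXBP1 in T47D and 11.31 and 11.12 with shCtrl and 10.28 and 10.17 with shXBP1 in MDA-MB-231 (difference -2.36). KLF10, induced by TGF-beta, had 1.59 and -0.51. KLF3, KLF4 and KLF11 rose more in T47D, with effects of 3.46, 2.01 and 2.03 against 0.76, 0.37 and 0.67. The MDA-MB-231 call of KLF4 was lost in 7 of 8 fits (adjusted p up to 0.179 without MDA-MB-231 shCtrl replicate 2), and with the mean over probe sets none of the 3 kept calls of one direction in both lines. KLF9 was at 0.2, not called, in T47D and fell by 1.89 in MDA-MB-231, with a difference of -0.84 for the mean over probe sets.

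Jumonji histone demethylases, which need oxygen to work, had 13 of 24 called lower and 0 higher (1 higher at an unadjusted p under 0.05, limma), with 10 up in T47D and 6 down in MDA-MB-231. Beside JMJD1C and KDM3A, KDM6B had 1.45 and 0.13, not called, and KDM5B 0.69 and -0.22, not called. KDM7A was at 0.49, not called, in T47D and fell by 1.65 in MDA-MB-231, with -1.32 for the mean over probe sets. The count of 13 was 7 without T47D shCtrl replicate 2 or T47D shXBP1 replicate 1 or 2. USP deubiquitinases had 16 of 46 called lower and 4 higher, and the count of 20 was 12 and 13 without T47D shXBP1 replicate 1 and 2. Circadian clock genes had 7 of 15 called lower and 0 higher (0 also at an unadjusted p under 0.05). The clock repressors NR1D2 and PER2 rose by 1.22 and 1.42 in T47D and were at -0.22 and 0.05, not called, in MDA-MB-231. The PER2 difference of -1.37 was -0.73 with the mean over probe sets.

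Genes that restrain mTOR and respond to FOXO factors had 10 of 20 called lower and 1 higher, 4 of them reversed. SESN2, a stress-induced inhibitor of mTORC1, read 8.79 and 8.89 with shCtrl and 10.42 and 10.22 with shXBP1 in T47D and 9.1 and 8.79 with shCtrl and 7.67 and 7.85 with shXBP1 in MDA-MB-231, apart in both lines (difference -2.67, adjusted p = 0.000194). IRS2, an insulin receptor substrate, had 0.82 and -0.73. DEPTOR, a subunit that inhibits mTOR, rose by 1.9 in T47D and was at -0.26, not called, in MDA-MB-231 (-1.19 with the mean over probe sets). TRIB1 rose in both lines, by 2.57 and 0.85, and its difference shrank to -0.47 with that mean.

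Interferon response genes were called higher in 27 of 62 and lower in 5, with 23 up and 0 down in MDA-MB-231 (2 down at an unadjusted p under 0.05, limma) against 18 up and 11 down in T47D. Antiviral effectors had 16 of 28 higher and 0 lower (0 also unadjusted), sensors and signalling genes 2 and 2 of 18, and guanylate-binding, chemokine and antigen presentation genes 9 and 3 of 16. IFIT2, which binds viral RNA complexes, read 6.81 and 7.0 with shCtrl and 7.25 and 7.21 with shXBP1 in T47D and 7.29 and 7.32 with shCtrl and 9.55 and 9.84 with shXBP1 in MDA-MB-231 (difference 2.06). The T47D levels of IFIT2 stayed below all MDA-MB-231 levels. ISG15, a ubiquitin-like protein, read 8.68 and 8.67 with shCtrl and 8.46 and 8.62 with shXBP1 in T47D and 10.30 and 10.29 with shCtrl and 11.91 and 11.94 with shXBP1 in MDA-MB-231 (difference 1.76, adjusted p = 0.000196). GBP3, a guanylate-binding protein, and IFI44 were dim in T47D and rose by 3.05 and 2.23 in MDA-MB-231.

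Heat shock genes of the cytosol were called higher in 12 of 22 and lower in 0 (0 lower also at an unadjusted p under 0.05, limma), with 12 up in MDA-MB-231 and 4 up and 3 down in T47D. DNAJB1, the main HSP40 partner of HSP70, read 10.43 and 10.45 with shCtrl and 10.33 and 10.41 with shXBP1 in T47D and 11.24 and 11.89 with shCtrl and 12.99 and 12.77 with shXBP1 in MDA-MB-231. The T47D groups did not overlap but lay within about 0.1 of each other, without a called effect. The MDA-MB-231 groups were further apart (difference 1.39, adjusted p = 0.00897). BAG3, a co-chaperone of selective autophagy, CRYAB, a small heat shock protein, and DNAJB4 rose by 1.09, 1.81 and 1.8 in MDA-MB-231 and were at -0.18, -0.15 and -0.07, not called, in T47D. HSPA2 rose in both lines, by 0.95 and 3.52.

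The promoters of IFI44 and HSPA6 are shown as single examples of the letters searched in these lists. Capitals mark the core of the interferon-stimulated response element (GAAANNGAAA) in IFI44 and of the heat shock element (GAANNTTC) in HSPA6, on either strand. IFI44 is at chr1:78649539-78649838 and HSPA6 at chr1:161524290-161524589, both on the plus strand in the same build.
IFI44: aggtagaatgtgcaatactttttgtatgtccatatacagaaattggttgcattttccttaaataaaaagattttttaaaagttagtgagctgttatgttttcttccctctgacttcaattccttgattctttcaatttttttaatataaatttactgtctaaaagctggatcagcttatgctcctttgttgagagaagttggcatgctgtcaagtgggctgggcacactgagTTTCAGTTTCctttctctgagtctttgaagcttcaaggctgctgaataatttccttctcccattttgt
HSPA6: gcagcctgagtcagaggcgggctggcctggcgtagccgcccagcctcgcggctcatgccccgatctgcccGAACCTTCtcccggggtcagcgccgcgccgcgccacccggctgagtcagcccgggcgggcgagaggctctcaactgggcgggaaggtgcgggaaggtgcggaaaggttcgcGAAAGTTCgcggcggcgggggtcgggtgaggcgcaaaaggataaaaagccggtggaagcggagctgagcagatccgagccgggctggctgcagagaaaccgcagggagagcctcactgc
GAAANNGAAA was in 17 of 22 promoters (77.3%) of interferon genes called higher and in 33 of 47 (70.2%) of all interferon genes with a promoter, against 2.95% of all 15382. GAANNTTC, which reads the same on both strands, was in 3 of 10 promoters (30%) of heat shock genes called higher. It was in 7 of 20 (35%) of all heat shock genes with a promoter, against 5.56% of all 15382.

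Genes of the secretory pathway are the known territory of XBP1. Among 27 ER chaperones and folding enzymes 2 were called higher and 1 lower, 11.1% against 24.8% of all genes. HSPA5, encoding BiP, read 14.64 and 14.77 with shCtrl and 14.24 and 14.23 with shXBP1 in T47D and 14.53 on both shCtrl arrays and 13.80 and 13.63 with shXBP1 in MDA-MB-231. It fell in both lines, and the difference of -0.34 (SE 0.14, adjusted p = 0.111) did not pass. DNAJB9, a BiP co-chaperone, fell in both by 0.46 and 0.87 (difference -0.41, adjusted p = 0.0542). The HSPA5 call in T47D was lost in 2 fits with 1 array left out (adjusted p up to 0.0545 without T47D shCtrl replicate 2), and that of DNAJB9 without T47D shXBP1 replicate 1 (0.0647). SIL1, a nucleotide exchange factor of BiP, was called higher (-0.33, not called, and 0.7). The other called members, HSP90B1 and HYOU1, both ER chaperones, differed by -0.65 and 0.46, calls that were lost in most fits with 1 array left out. The chaperone count was 1 without any 1 T47D array or either MDA-MB-231 shCtrl array, and 6 without MDA-MB-231 shXBP1 replicate 2. It moved most with a variance trend and robust moderation in limma, which called 7 higher and 5 lower, 44.4% against 30.3% of all genes, so this list was below or above the background depending on the moderation.

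N-glycosylation genes were called higher in 16 of 33 and lower in 0 (0 lower also at an unadjusted p under 0.05, limma), and 5 were reversed. T47D had 18 down and 1 up, MDA-MB-231 9 up and 7 down, with a median difference of 0.37. MOGS, the glucosidase that starts glycan trimming, read 7.67 and 7.65 with shCtrl and 7.19 and 7.21 with shXBP1 in T47D and 7.38 and 7.52 with shCtrl and 8.37 and 8.28 with shXBP1 in MDA-MB-231 (difference 1.34). DPAGT1, which starts the lipid-linked oligosaccharide, fell by 1.21 in T47D and was at 0.18, not called, in MDA-MB-231. MAGT1, an oxidoreductase subunit of oligosaccharyltransferase, had -0.62 and 0.52. ALG14 had -0.86 and 0.63, a difference of 0.73 with the mean over probe sets, where its reversal was lost. The count of 16 was 10 without T47D shCtrl replicate 2 or T47D shXBP1 replicate 1. With the mean over probe sets 11 were called higher and 1 lower, with a median difference of 0.19. Of these, 4 were reversed up in MDA-MB-231 and 1 down there. The MDA-MB-231 call of MAGT1 was lost in 2 of the 8 fits (adjusted p up to 0.0655 without MDA-MB-231 shCtrl replicate 2).

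Other secretory lists were mixed. Genes of ER to Golgi transport had 13 of 44 called higher and 4 lower, with SEC23B, of the COPII coat, at -0.21, not called, and 1.53, and ARF1, the GTPase of the COPI coat, at 0.41 and -1.23. ER translocation had 8 of 24 higher and 3 lower. SSR1, of the translocon-associated complex, read 13.23 on both shCtrl arrays and 12.73 and 12.72 with shXBP1 in T47D and 10.82 and 11.10 with shCtrl and 13.04 and 13.16 with shXBP1 in MDA-MB-231 (difference 2.65). ER-associated degradation had 6 of 25 higher and 4 lower, with the mannosidase-like EDEM2 at -1.01 and 0.1, not called, and VCP, the ATPase that extracts substrates, at -0.79 and 0.03, not called. VCP differed by 0.37 with the mean over probe sets. The translocation count was 5 to 7 with any 1 of the 8 arrays left out, and a variance trend with robust moderation gave 12 higher and 7 lower, and 22 and 6 for transport. The degradation count of 10 was 6 without T47D shXBP1 replicate 1 or 2 or MDA-MB-231 shCtrl replicate 1. The T47D calls of SSR1 (up to 0.0606) and ARF1 (up to 0.163) were lost without T47D shXBP1 replicate 1 or 2, among others.

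Regulators of the unfolded protein response were divided, with 6 of 16 called lower and 2 higher in MDA-MB-231 and a median difference of 0.15. With the mean over probe sets 3 were lower and 1 higher, and the median difference was 0.09 with that mean as well as without MDA-MB-231 shXBP1 replicate 2. DDIT3, encoding the death-linked factor CHOP, read 13.45 and 13.52 with shCtrl and 13.96 and 13.86 with shXBP1 in T47D and 11.93 and 11.74 with shCtrl and 10.81 and 10.28 with shXBP1 in MDA-MB-231. Its groups were apart in both lines, its T47D effect of 0.42 was not called, and the difference was -1.71 (SE 0.24, adjusted p = 0.00193). PPP1R15A, which restores translation after eIF2-alpha phosphorylation, had 0.89 and -0.44. The latter was lost in 5 of 8 fits (adjusted p up to 0.143 without MDA-MB-231 shCtrl replicate 1). EIF2AK3, encoding the sensor PERK, rose by 1.77 in T47D and was at -0.15, not called, in MDA-MB-231 (-0.93 with the mean over probe sets). ERN1, encoding IRE1, had 1.59 and 0.22, not called, and its difference was lost with that mean (-0.16).

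ATF4 targets had 15 of 45 called lower and 8 higher. The stress regulators among them had 10 of 16 lower, 6 of them reversed, and 1 higher, whereas amino acid synthesis and transport had 3 lower and 5 higher of 18, and tRNA charging 2 and 2 of 11. GDF15, a stress cytokine, read 10.40 and 10.65 with shCtrl and 11.49 and 11.39 with shXBP1 in T47D and 10.78 and 10.77 with shCtrl and 9.54 and 9.26 with shXBP1 in MDA-MB-231 (difference -2.29, or -1.18 with the mean over probe sets). CEBPG, a dimer partner of ATF4, had 0.83 and -0.58, and VLDLR, a lipoprotein receptor, 1.26 and -0.5. Without MDA-MB-231 shCtrl replicate 1 the MDA-MB-231 calls of CEBPG (adjusted p = 0.0673) and VLDLR (0.131) were lost. CTH, of cysteine synthesis, fell by 1.75 in T47D and was at -0.25, not called, in MDA-MB-231.

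Immediate early genes divided. Of 31, 10 were called higher and 9 lower. EGR1, a growth factor-induced zinc finger factor that was dim in T47D, rose by 2.04 in MDA-MB-231 and was at -0.49, not called, in T47D. IER5 and GEM, a small GTPase, rose by 2.63 and 3.39 in MDA-MB-231 and were at -0.42 and 0.38, not called, in T47D. MAPK feedback genes had 6 of 16 called lower and 2 higher. DUSP10, a phosphatase of p38 and JNK, rose by 2.52 in T47D and was at -0.15, not called, in MDA-MB-231. DUSP6, a phosphatase of ERK, was at -0.18, not called, and rose by 0.91. NF-kB and cytokine genes had 5 of 29 higher and 7 lower. TNFAIP3, a feedback inhibitor, rose by 1.04 in T47D and was at -0.26, not called, in MDA-MB-231. IL6 was dim in T47D and rose by 1.41 in MDA-MB-231.

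Lineage genes did not move as a block. Of 30 luminal and oestrogen receptor genes 9 were called higher and 8 lower, and 3 were reversed up in MDA-MB-231. In this list 12 genes were dim in MDA-MB-231 and 1 in T47D, and a fall is hard to see in a dim line. HSD17B1, which makes oestradiol, fell by 3.65 in T47D (difference 3.32, 2.13 with the mean over probe sets), and NAT1 rose by 2.19 in MDA-MB-231 with 0.32, not called, in T47D. Keratins and epithelial junction genes had 6 of 25 higher and 4 lower, with 8 dim in MDA-MB-231 and 2 in T47D. KRT8, a simple epithelial keratin, read 15.07 and 15.11 with shCtrl and 13.85 and 13.68 with shXBP1 in T47D and 13.19 on both shCtrl arrays and 13.74 and 13.62 with shXBP1 in MDA-MB-231 (difference 1.82). Its MDA-MB-231 rise was lost in 2 of 8 fits (adjusted p up to 0.0607 without MDA-MB-231 shXBP1 replicate 1). Its partner KRT18 had -0.8 and 0.27, not called. Mesenchymal and matrix genes had 7 of 41 higher and 6 lower, 31.7% called against 24.8% of all genes. Here 15 were dim in T47D and 4 in MDA-MB-231. CCN2, a matricellular protein, and S100A4 fell by 2.58 and 1.89 in T47D, ANXA1 rose by 2.71 there, and the 3 were at -0.02, 0.22 and 0.07, not called, in MDA-MB-231. LAMB3, a laminin chain, and SNAI1, a repressor of E-cadherin, rose by 2.09 and 1.83 in MDA-MB-231.

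Proteasome subunits had 13 of 34 higher and 0 lower (0 lower also at an unadjusted p under 0.05, limma), with 14 down in T47D and 8 up in MDA-MB-231. The called share was 38.2%, with 1 member dim in T47D and 2 in MDA-MB-231. PSMC3, an ATPase of the regulatory particle, read 11.11 and 11.22 with shCtrl and 10.39 and 10.37 with shXBP1 in T47D and 11.22 and 11.31 with shCtrl and 11.63 and 11.51 with shXBP1 in MDA-MB-231 (difference 1.09). Sterol and fatty acid synthesis had 14 of 31 higher and 4 lower, and MSMO1, of sterol demethylation, had -0.68 and 0.64. Without T47D shXBP1 replicate 1 this list had 11 called. Oxidative phosphorylation had 11 of 69 higher and 0 lower (0 lower also unadjusted), with 36 members down in T47D and 8 in MDA-MB-231. This share of 15.9% is below that of all genes, but a variance trend with robust moderation called 25 higher and 3 lower, 40.6% against 30.3%. The count was 6 without T47D shXBP1 replicate 1, 6 without replicate 2 and 7 without T47D shCtrl replicate 2. Mitochondrial ribosomal proteins had 14 of 75 higher and 2 lower, and cytosolic ones 2 and 2 of 57, 21.3% and 7.02% called against 24.8% of all genes. The variance trend with robust moderation gave 24 and 6 for the mitochondrial and 3 and 20 for the cytosolic ones, 40% and 40.4% called, both above the 30.3% of all genes. It also gave 23 higher and 0 lower for the proteasome. The mitochondrial count of 16 became 8 without T47D shCtrl replicate 2 or T47D shXBP1 replicate 1, 9 without T47D shXBP1 replicate 2, MDA-MB-231 shCtrl replicate 1 or MDA-MB-231 shXBP1 replicate 1, and the cytosolic count of 4 became 0 without T47D shCtrl replicate 1 or T47D shXBP1 replicate 1, 1 without T47D shXBP1 replicate 2, 2 without T47D shCtrl replicate 2 or MDA-MB-231 shCtrl replicate 1. Of 7 metallothioneins, which bind zinc and copper, 5 were called higher and 0 lower (0 lower also unadjusted), with MT1E at -0.63 and 0.77. The T47D call of MT1E was lost without T47D shXBP1 replicate 1 or shCtrl replicate 2 (adjusted p up to 0.0844), and the MDA-MB-231 call without shXBP1 replicate 1 (0.0572). They are close copies with uncertain separation of signal. Among the lists not described so far, autophagy and lysosome genes had 14 of 50 higher and 6 lower, p53 targets and CDK inhibitors 3 and 6 of 21, and NRF2 and glutathione genes 4 and 7 of 24. BCL2 family and cell death genes had 4 of 31 higher and 5 lower, and EGF ligands and receptors 1 and 2 of 11. These 2 lists had 29% and 27.3% called, near the 24.8% of all genes. The autophagy count of 20 became 13 without T47D shXBP1 replicate 2, the cell death count of 9 became 5 without T47D shCtrl replicate 1 or 2 or T47D shXBP1 replicate 1 or 2, and the EGF count of 3 became 5 without MDA-MB-231 shXBP1 replicate 2. The variance trend also gave 5 for the EGF list.

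The following properties of the reversed genes are descriptions, and their difference between the directions was not tested. The median gene span was 27.3 kb for those up in MDA-MB-231 and 51.8 kb for those down there, against 24.7 kb for all genes tested (RefSeq). Of those down in MDA-MB-231 81% had several probe sets, of those up there 57.2%, and of all genes 53.2%. The median level was 9.43 for those up in MDA-MB-231, 9.27 for those down there and 6.99 for all genes. Symbols that begin with ZNF and a digit, a wider set of 502 than the list of 466, numbered 3 of 339 up in MDA-MB-231 and 25 of 336 down there, against 502 of all 19775 genes.

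A second probe set gave a partly separate reading of these genes, from the same RNA and arrays. Of 194 genes up in MDA-MB-231 with another probe set, the second brightest had the same sign of the difference in 168, was called the same way in 104 and the opposite way in 4. Of 272 genes down in MDA-MB-231, the numbers were 242, 168 and 5. Opposite signs in the lines were seen again in 126 and 196, and the full reversal with all 3 calls in 43 and 85.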

How the data were processed

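RNA of 8 samples was hybridised to Affymetrix arrays. The values are the authors' deposited log2 RMA levels, made with affy 1.30.0 per the submitters' processing notes; the arrays normalised together are not given in the sources used here. From 54675 probe sets, 41091 with a single symbol in the platform annotation were used, 1801 with several symbols were left out, and the brightest probe set over the 8 arrays stood for each of 19775 genes.

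The 4 groups were fitted as means with limma 3.58.1 (R 4.3.3) on all 8 arrays, with 2 per group, with the Benjamini-Hochberg adjustment run over all genes (threshold 0.05). For single values, an exact permutation of 2 against 2 arrays cannot go below 0.333, so none was used. The script was tested on simulated data. The number of arrays limits the precision, with a median standard error of the difference of 0.168. Replicate 1 arrays of different groups did not deviate together (correlations from -0.069 to 0.038), so the numbers were not taken to pair samples.

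The genes, lists and rule for naming were chosen with earlier results of these data known. Named were XBP1, the 12 largest reversed genes each way, the 6 largest others each way, up to 6 called members of each list (for a list with none, up to 2), and 9 genes always given (VEGFA, PDK1, SLC2A1, KDM3A, DDIT4, HSPA5, DNAJB9, DDIT3 and HIF1A); some are left out of the text. Alternatives changed the probe set rule, a filter on dim genes, the scaling, the variance model, the block and single arrays.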

Additional observations from a re-analysis of the deposited data

Results flagged for a closer look

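The following results were singled out because the knockdown effect differed between the lines by the test of the difference itself (limma, adjusted p under 0.05). They hold the 4905 genes called, the 2579 higher and the 2326 lower in MDA-MB-231, and the 339 and 336 reversed genes. The fall of XBP1 itself belongs here too, with a difference of 1.3 between the 2 knockdown effects.

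Among named genes with the higher effect in MDA-MB-231, the differences were 5.52 for AQP3, 3.33 for CCN5, 3.23 for FN1, 3.16 for FOLR1, 3.10 for PLAC8 and 3.05 for H2BC21. They were 3.01 for CDC20B, 2.99 for BAMBI, 2.96 for PSG9, 2.90 for TFF1, 2.89 for OASL and 2.83 for ARHGDIB.

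Among those with the lower effect, they were -3.46 for ZNF292, -3.34 for PSD3, -2.90 for CCNG2, -2.88 for PGM2L1, -2.85 for CREBRF and -2.77 for LONRF1. ZBTB34 and COL5A2 both had -2.73, ID3 had -2.69, FRMD6 and JMJD1C both had -2.68, and NREP had -2.67.

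The hypoxia and stress genes that were always given differed by -1.13 for VEGFA, -1.79 for PDK1, -2.03 for KDM3A, -1.62 for DDIT4, -1.71 for DDIT3 and -0.57 for HIF1A. With 2 arrays in a group, a single array standing far from its group could not be tested for.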

How the results depend on the processing

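The counts moved with the unit and threshold of a call. Reading each of 41091 probe sets on its own gave 8689 calls, 3973 higher and 4716 lower in MDA-MB-231, and 725 reversed down there. Requiring a difference of at least 2-fold left 1777 calls, 842 higher and 935 lower. Leaving out genes dim in either line gave 507 reversed down in MDA-MB-231, and a variance trend with robust moderation gave 556 reversed up and 544 down. Leaving out 1 array at a time gave 3337 to 4801 calls, 1692 to 2507 higher and 1619 to 2294 lower, with 166 to 284 reversed up in MDA-MB-231 and 179 to 363 down. The mean over probe sets gave 315 and 340 reversed genes, of which 223 and 202 were among the 339 and 336. The share of calls that were higher was 52.6%, and 45.7% to 55.6% under the alternatives that kept all samples.

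With the replicate number as a block over all arrays 4466 genes were called and 270 and 273 were reversed, and with a replicate block within each line 3938 were called and 214 and 197 reversed. Same-numbered arrays did not deviate together, so the numbers were not read as a pairing.

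Of 240 called genes followed one by one, 204 kept the call under every one of the 16 alternatives that tested them. Another 36 lost it under 1 or more, and 0 changed sign. Genes left out by a filter on dim genes were not tested there. Many of the 240 were named for wide differences, so these counts do not describe called genes in general. The cause of these changes was not tested. With 2 arrays per group and 4 residual degrees of freedom, small effects near the threshold are the least certain, and dim probe sets give a poor reading of a fall.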
